A study of Mus musculus with 44 samples.

Results

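The genes examined here were 10 genes of fatty acid uptake and binding, out of the 38202 genes in the deposited tables. They were listed by name and all 10 were found: the fatty acid translocase Cd36, the transport protein genes Slc27a1, Slc27a2, Slc27a4 and Slc27a5, the binding protein genes Fabp1, Fabp2, Fabp3 and Fabp4, and the lipase gene Lpl. Their transcripts were counted by RNA-Seq of poly(A) RNA in liver and skeletal muscle of 22 male mice, 11 WT and 11 Slc16a13 KO littermates, so that each of the 4 groups held 11 libraries. All mice had received high-fat diet (HFD) for 15 weeks and were killed at an age of 20 weeks after an overnight fast, and no group on another diet or in the fed state was part of this data set. The KO was constitutive. Gene editing had removed the promoter and the first exons of Slc16a13, which encodes a lactate transporter of the monocarboxylate transporter family, in every cell of the animal, liver and muscle alike. The question addressed was whether loss of this transporter goes along with other levels of the genes that bring fatty acids into liver and muscle.

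Long-chain fatty acids reach these tissues bound to albumin or are released at the vessel wall from triglyceride-rich lipoproteins by lipoprotein lipase, the product of Lpl. CD36 is a plasma membrane protein that takes up long-chain fatty acids, and proteins of the SLC27A family (FATP) couple uptake to activation with coenzyme A. SLC27A1 is the family member known from muscle and adipose tissue, SLC27A4 is widely expressed, SLC27A2 is a very long-chain acyl-CoA synthetase, and SLC27A5 is known as the bile acyl-CoA synthetase of hepatocytes. Inside the cell, fatty acids are carried by small binding proteins: FABP1 is the liver form, FABP2 the intestinal form, FABP3 the heart and muscle form, and FABP4 the form of adipocytes, which capillary endothelium and macrophages also express. Several of these genes are targets of the fatty acid-sensing PPAR nuclear receptors, which pair with RXR and bind a direct repeat of the letters AGGTCA with 1 base between the repeats.

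Each library held from 20150712 to 35218243 reads assigned to genes. Slc16a13 itself was read first as a check of the labels. In liver it had 1828 reads over the 11 WT libraries and 39 over the 11 KO libraries, and the groups did not overlap. In muscle it had 136 reads over the WT libraries and 218 over the libraries labelled KO, so the muscle counts go against the label and these are called muscle libraries labelled KO. Tissue markers matched the labels: 10 hepatocyte markers summed to between 91300 and 157200 reads scaled to library size (CPM) in liver and at most 12.2 in muscle, and 8 myofibre markers to at least 148900 CPM in muscle and at most 69.1 in liver. Among the livers, 4 KO libraries stood apart because they held few reads on long genes. Their slopes, from regression of log2 CPM against the log2 of gene length, were -0.536 (animal 532), -0.422 (602), -0.25 (583) and -0.079 (611), while the other 18 livers lay between 0.038 and 0.109. Results on KO livers are therefore given with and without these 4 libraries. In muscle, the libraries of animals 561 and 611, both labelled KO, had the highest sums of 8 adipocyte markers, at 1691 and 1310 CPM. The same animals also had the highest sums of endothelial markers (301 and 332 CPM, WT at most 288), macrophage markers (145 and 153 CPM, WT at most 102) and fibroblast markers (767 and 852 CPM, WT at most 686), and animal 611 had the lowest sum of myofibre markers. Libraries were sequenced in pools of 11, the size of each group, and the members of each pool are not given in the sources used here, so pool and group cannot be told apart. In bulk tissue, fewer cells of a type and less RNA per cell cannot be told apart either.

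The largest contrasts in the data set lay between the tissues. All 10 genes differed between WT liver and WT muscle, 5 higher in liver (Fabp1, Fabp2, Slc27a2, Slc27a4, Slc27a5) and 5 higher in muscle (Cd36, Fabp3, Fabp4, Slc27a1, Lpl), at an adjusted p under 0.05 (quasi-likelihood test in edgeR, with p-values adjusted over all genes tested by Benjamini and Hochberg's method). Most genes differ between these tissues: of 13907 genes tested, 45.5% were called higher in liver and 45.5% higher in muscle. In KO liver against muscle labelled KO the 10 genes fell on the same sides, and 43.9% of 13981 genes were called higher in liver and 42.8% higher in muscle. The 10 genes did so also without the 4 KO livers of negative slope. There 6287 of 14371 genes tested were called higher in liver and 6467 higher in muscle. The sizes of the contrasts are given by role.

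The binding proteins changed places between the tissues. Fabp1 (ENSMUSG00000054422) was the highest of the 10 genes in liver, with a lowest, median and highest level of 4285, 5376 and 6309 RPKM (reads scaled to gene length and library size, as deposited) in WT livers. In the 11 WT muscles, Fabp1 had 14 reads in all, 11 of them in the library of animal 616, and 8 libraries had none. Over the pooled WT libraries and scaled to total reads, Fabp1 was 60280 times higher in liver than in muscle (exact 95% counting interval 35930 to 110300; such intervals cover counting error only, since reads are not independent molecules). Fabp1 made up between 96.6% and 97.9% of the RPKM of the 4 listed binding protein genes in each WT liver.

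Fabp2 (ENSMUSG00000023057), the gene of the intestinal form, was also well expressed in liver, at 108, 139 and 171 RPKM (lowest, median and highest of 11 WT livers). WT muscle held 2 Fabp2 reads in all, both in animal 616, and the pooled ratio of liver to muscle was 18980 (exact 95% counting interval 5254 to 156700). Fabp3 (ENSMUSG00000028773) was the reverse, with 121, 226 and 520 RPKM in WT muscles. WT livers held 11 Fabp3 reads in all and 7 of them had none. Animals 516 and 624 had the most, with 4 reads each. The myofibre marker sum was 69.1 CPM in animal 516, the highest of the 22 livers, and 3.67 CPM in animal 624. Fabp3 was 5829 times higher in muscle by pooled CPM (exact 95% counting interval 3258 to 11680). Fabp4 (ENSMUSG00000062515) was present in both tissues without overlap, at 11.0, 15.9 and 24.5 RPKM in WT livers and 249, 401 and 649.7 in WT muscles, a log2 fold change of -4.71 for liver minus muscle (standard error 0.19). In muscle, Fabp4 took more of the listed binding protein RPKM than Fabp3, with a median share of 58.9% against 41.1% in WT libraries.

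The promoters of Fabp1, Fabp3 and Cd36 are shown because these genes are, in turn, liver-restricted, muscle-restricted and shared between the tissues in these counts. Each line is the 250 bases before the start site in the RefSeq table of GRCm38.p6, 5′ to 3′ on the gene's strand. Capitals mark the letters TATAAA and matches, with at most 2 mismatches on either strand, to the direct repeat of AGGTCA with 1 base between. A window was found for 7 of the 10 genes.
Fabp1 (chr6:71199629-71199878, plus strand): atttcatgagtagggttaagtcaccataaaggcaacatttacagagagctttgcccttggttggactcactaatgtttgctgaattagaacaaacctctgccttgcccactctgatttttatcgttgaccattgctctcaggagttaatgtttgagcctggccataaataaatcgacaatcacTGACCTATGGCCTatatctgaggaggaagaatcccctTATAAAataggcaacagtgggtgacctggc
Fabp3 (chr4:130308488-130308737, plus strand): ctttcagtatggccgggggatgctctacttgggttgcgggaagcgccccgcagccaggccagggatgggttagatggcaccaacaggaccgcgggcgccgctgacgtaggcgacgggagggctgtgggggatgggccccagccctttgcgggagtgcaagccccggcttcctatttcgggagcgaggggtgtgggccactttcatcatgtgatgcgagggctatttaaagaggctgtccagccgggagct
Cd36 (chr5:17835897-17836146, minus strand): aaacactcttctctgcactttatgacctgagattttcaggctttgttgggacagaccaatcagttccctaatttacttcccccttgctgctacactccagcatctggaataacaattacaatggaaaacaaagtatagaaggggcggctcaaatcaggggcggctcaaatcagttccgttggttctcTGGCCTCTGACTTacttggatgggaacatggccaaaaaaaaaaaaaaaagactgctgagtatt
In the Fabp1 window the direct repeat was matched with 1 mismatch on the opposite strand at bases -67 to -55 from the start site, and TATAAA stood at bases -30 to -25. In the Cd36 window the repeat was matched with 2 mismatches at bases -63 to -51, also on the opposite strand. The windows of Fabp2, Fabp3, Slc27a1, Slc27a2 and Slc27a4 held neither. Of all 32851 windows of 300 bases, 3.86% held the repeat with at most 2 mismatches, 0.554% with at most 1, and 13.6% held TATAAA on either strand.

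The transport proteins were split in the same way. Slc27a2 (ENSMUSG00000027359) stood at 1040, 1178 and 1469 RPKM and Slc27a5 (ENSMUSG00000030382) at 616, 677 and 758 RPKM (lowest, median and highest of 11 WT livers). In WT muscle these hepatic genes had 13 and 56 reads over all 11 libraries. The pooled ratios of liver to muscle were 50980 for Slc27a2 (exact 95% counting interval 29810 to 95750) and 5628 for Slc27a5 (4334 to 7451). Slc27a1 (ENSMUSG00000031808), the muscle and fat form, was lower in liver, at 6.15, 7.54 and 11.4 RPKM against 31.5, 44 and 55.3 in WT muscle, a log2 fold change of -2.39 (standard error 0.11). Slc27a4 (ENSMUSG00000059316) was detected in both tissues and was 4.73-fold higher in liver (log2 fold change 2.24, standard error 0.06), with 13.1, 16.6 and 18.3 RPKM against 3.17, 3.37 and 4.29. The median share of Slc27a1 in the RPKM of the 4 listed Slc27a genes was 91.5% in WT muscle and 0.404% in WT liver.

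Cd36 (ENSMUSG00000002944) was the least tissue-biased of the 10 genes. It stood at 33.2, 80.8 and 105 RPKM in WT livers and 81.1, 98.2 and 178 RPKM in WT muscles, and it was the only one of the 10 whose WT liver and WT muscle ranges overlapped. Its log2 fold change of liver minus muscle was -0.57 (standard error 0.17, adjusted p = 0.00304, edgeR). With KO liver and muscle labelled KO the value was -1.12 (standard error 0.23), and -0.92 (standard error 0.24) without the 4 KO livers of negative slope. Lpl (ENSMUSG00000015568) was a muscle gene in this comparison, at 65.5, 94.8 and 204 RPKM in WT muscle and 2.59, 4.74 and 7.73 RPKM in WT liver, a log2 fold change of -4.41 (standard error 0.21).

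**Figure D1:**
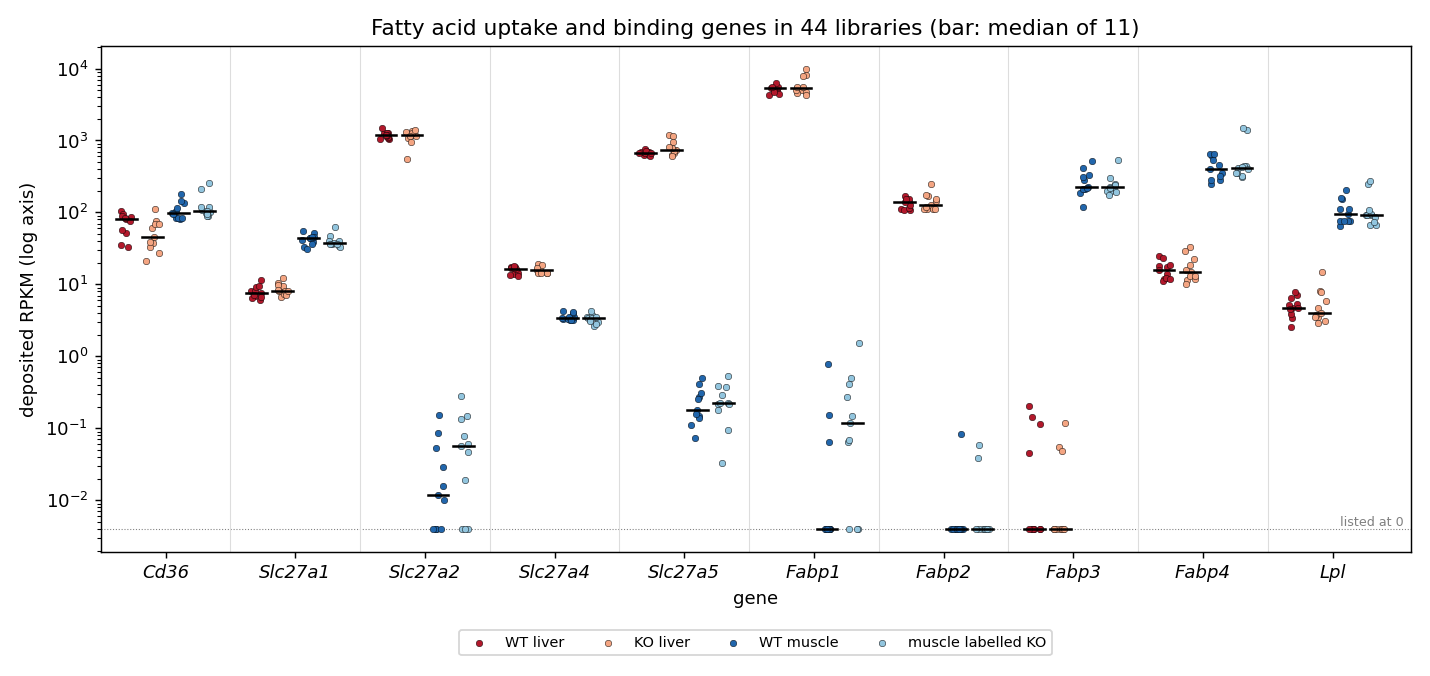
Deposited RPKM (log axis) of the 10 genes in each of 44 libraries, coloured by tissue and genotype label; bars are medians of 11 libraries, and values of 0 are drawn on the dotted line. Fabp1, Fabp2, Slc27a2 and Slc27a5 are high in liver and near 0 in muscle, Fabp3 is the reverse, and the WT ranges of Cd36 overlap between the tissues, with medians of 80.8 and 98.2 RPKM.

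Ordered by median RPKM, WT liver expressed Fabp1, Slc27a2, Slc27a5, Fabp2, Cd36, Slc27a4, Fabp4, Slc27a1, Lpl and Fabp3, and WT muscle Fabp4, Fabp3, Cd36, Lpl, Slc27a1, Slc27a4, Slc27a5, Slc27a2, Fabp1 and Fabp2. Neighbours were compared within mice on log2(RPKM + 0.01) by a two-sided exact sign-flip permutation test over 11 mice, adjusted over 18 pairs. In liver, Slc27a4 and Fabp4 did not differ beyond their spread (mean log2 difference 0.01, higher in 6 of 11 livers, adjusted p = 0.951 by the exact permutation test), and the other 8 neighbours did. In muscle, Cd36 and Lpl did not differ beyond their spread (0.05, higher in 7 of 11, adjusted p = 0.515 by the exact permutation test), nor did Slc27a2 and Fabp1 or Fabp1 and Fabp2, which were near 0. The pooled floor of 3 reads corresponds to 0.0103 CPM in WT muscle.

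The genes also differed in how much they varied between mice of one group. In WT livers the standard deviation of log2 CPM was 0.53 for Cd36, larger than for 93.1% of the 13005 genes tested, and 0.39 for Lpl and 0.36 for Fabp4 (85.2% and 82.5%). Slc27a5 and Slc27a4 were steady, at 0.13 and 0.12 (33.1% and 29.1%). In WT muscle, Fabp3, Lpl and Fabp4 varied most, at 0.54, 0.51 and 0.47, above 94%, 92.8% and 91.3% of 13266 genes.

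No gene of the 10 was called between KO and WT liver. Fabp3 did not pass the filter on low counts, and of the 9 tested genes 8 had a higher and 1 a lower mean log2 level in KO livers, with a median log2 fold change of 0.19 against -0.005 over all genes tested. Only 3 of 13005 genes were called at an adjusted p under 0.05 in this comparison (0.0231%), while 12.9% had an unadjusted p under 0.05, as did 1 of the 9 genes. That gene was Slc27a5, the bile acyl-CoA synthetase, which stood at 922, 1073 and 1167 CPM in WT livers and 912, 1172 and 1568 CPM in KO livers (lowest, median and highest of 11). Of the KO livers 7 lay above the WT range, 3 within it and 1 below, and the log2 fold change was 0.19 (95% interval 0.03 to 0.35, adjusted p = 0.382, edgeR).

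Fabp1 stood at 2368, 2882 and 3514 CPM in WT livers and 2389, 2907 and 6245 CPM in KO livers. The medians were close, and 3 KO livers were above the WT range while 8 lay within it. The log2 fold change was 0.29 (95% interval -0.01 to 0.58, adjusted p = 0.382, edgeR). Cd36 was the gene with a lower mean in KO livers: it stood at 119, 269 and 352 CPM in WT and 83.2, 158 and 368 CPM in KO livers, with 3 KO livers below the WT range, 7 within it and 1 above it. Its log2 fold change was -0.38 (95% interval -0.86 to 0.10, adjusted p = 0.408, edgeR).

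The remaining genes had log2 fold changes between 0.075 and 0.23. Lpl stood at 11.1, 18.3 and 27.04 CPM in WT livers and 13.5, 15.7 and 62.8 CPM in KO livers, so that its median was lower and its mean higher in KO mice. The highest value came from animal 532, whose sum of 7 macrophage markers of 1189 CPM was also the highest, against 375 to 505 in WT livers. Without that library the log2 fold change of Lpl was -0.04, against 0.23 with it. Fabp2 (log2 fold change 0.18) was also highest in animal 532, at 254 CPM against 106 to 152 in WT livers, as was Fabp4, at 22.2 CPM against 7.05 to 15.3.

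The KO livers that lay above the WT range were in large part those with few reads on long genes. For Fabp1 they were animals 583, 532 and 602, at 4696, 4756 and 6245 CPM, and all 7 KO livers without a negative slope lay within the WT range. The 4 libraries of negative slope spanned 1172 to 1568 CPM for Slc27a5, against 912 to 1248 CPM in the other 18 livers, and 83.2 to 234 CPM for Cd36, against 116 to 368. The differences did not follow the implied gene length in every case. Slc27a4 and Lpl, the longest of the 10 with 4054 and 3959 bases, had medians of 74.4 and 23 CPM in the 4 libraries against 62.1 and 17.99 in the other 18, while Cd36 (3426 bases) had 118 against 246 and Fabp1 (553 bases) 4726 against 2816. Without these 4 libraries the log2 fold changes of the 9 genes lay between -0.19 (Cd36) and 0.16 (Slc27a1), the median was -0.04, and 0 of the 9 had an unadjusted p under 0.05, against 2.96% of the 13210 genes then tested. Fabp1, Fabp2, Fabp4, Slc27a4 and Lpl then had fold changes of the opposite sign (-0.05, -0.04, -0.08, -0.003 and -0.09). Slc27a5 stood at 0.08 (standard error 0.07) and 3 of 7 KO livers remained above its WT range.

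**Figure D2:**
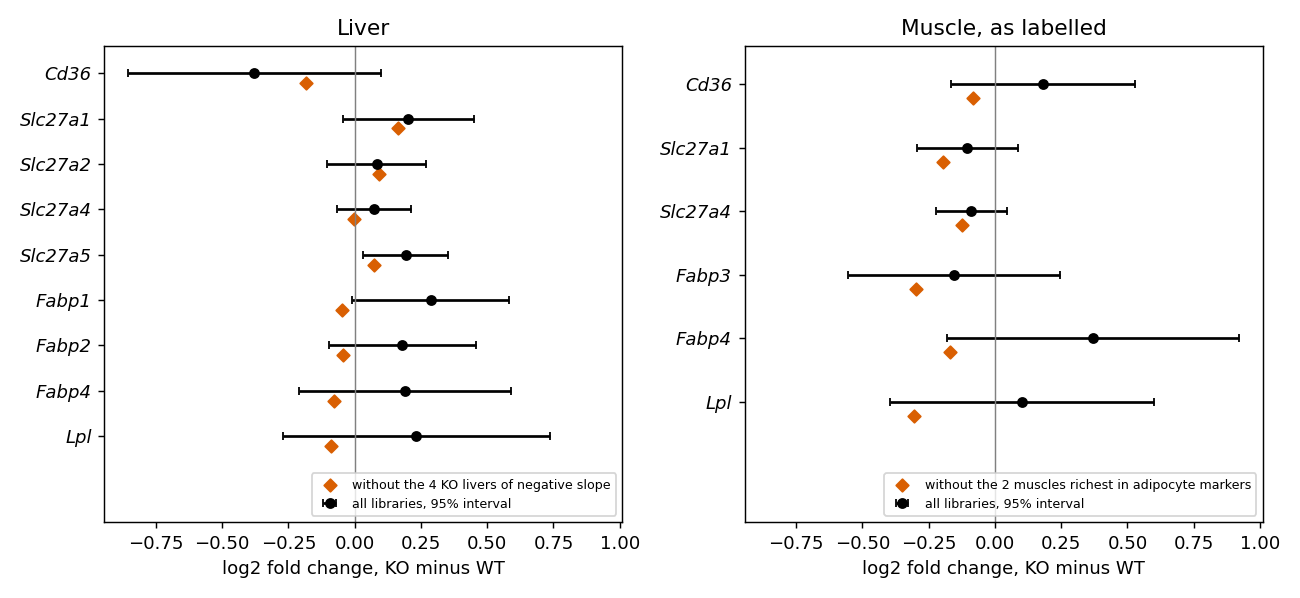
Log2 fold change of KO minus WT for the genes that passed the filter, in liver (left) and in muscle as labelled (right); circles with bars are estimates from all 22 libraries with 95% intervals, and diamonds leave out the 4 KO livers of negative slope or the 2 muscles richest in adipocyte markers. In liver only the interval of Slc27a5 excludes 0 before adjustment, and the diamonds lie between -0.19 and 0.16.

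The relation to the slope was tested over 10 genes and on deviations from the genotype means. Over all 22 livers, Pearson's r was -0.84 for Fabp1, -0.77 for Fabp2, -0.71 for Slc27a4 and -0.64 for Slc27a5. The adjusted permutation p was 0.017 for Slc27a5 and 0.0082 for the others named. No other of the 10 genes passed. By Spearman's rho (-0.63, -0.53, -0.63 and -0.53), Fabp2 did not pass (adjusted permutation p = 0.081). Without animals 532 and 602 these r were -0.68, -0.29, -0.39 and -0.5. With all 4 libraries of slope under 0 left out, the relation was also tested within the other 18 livers. Only Slc27a4 was related to the slope there, with Pearson's r = -0.66 (permutation p = 0.0043, adjusted p = 0.043) and Spearman's rho = -0.71 (permutation p = 0.0021, adjusted p = 0.021), and r = -0.66 without the 2 libraries of most distant slope. For Fabp1 r was 0.23 (permutation p = 0.37) within the 18 livers. With the trend on gene length removed from every library, the log2 fold change of KO minus WT was 0.03 for Fabp1, 0.0 for Fabp2 and -0.02 for Fabp4, against 0.29, 0.18 and 0.19 before, but 0.46 for Lpl and 0.26 for Slc27a4, against 0.23 and 0.075. Slc27a4 and Slc27a1 then had an unadjusted p under 0.05 (adjusted p = 0.531 for both, edgeR). Of all 13005 genes tested 1213 did, and none of the 9 was called.

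**Figure D3:**
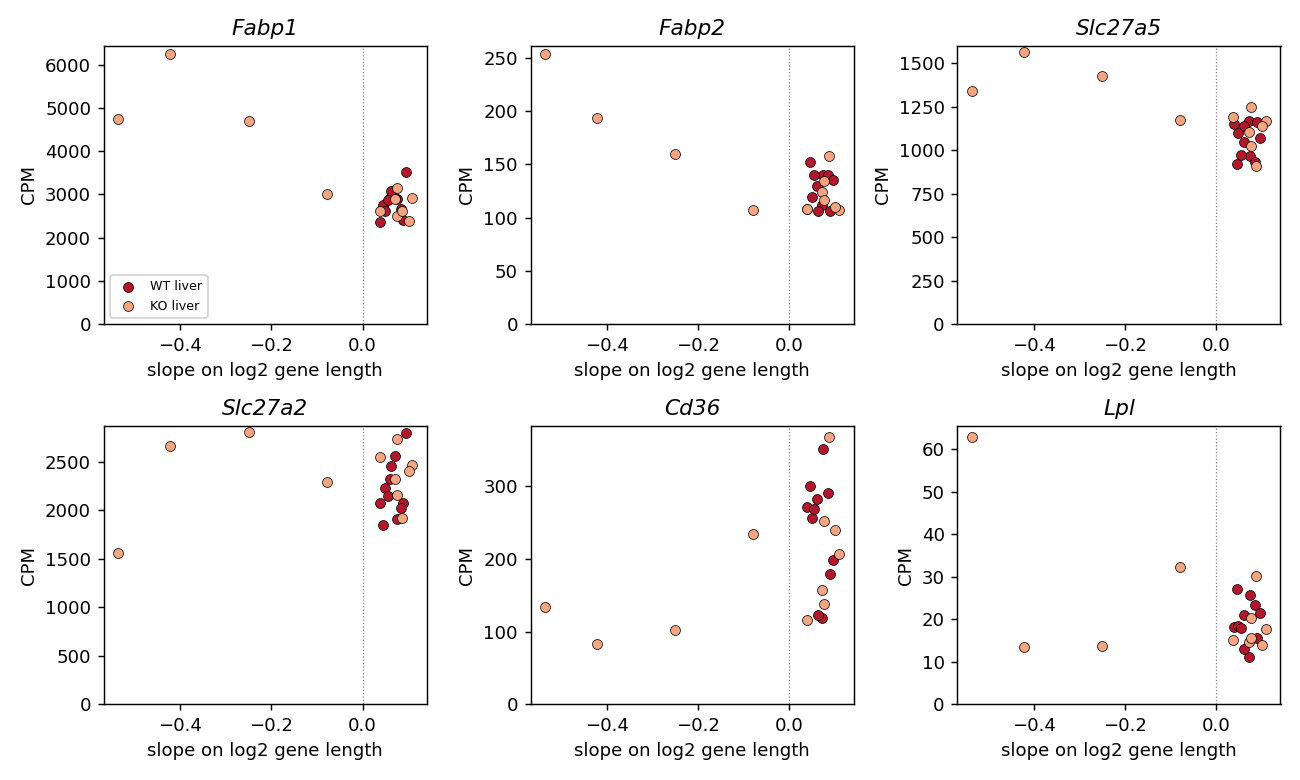
CPM of 6 genes in 22 livers against the slope of each library on gene length (no unit), with WT in dark red and KO in light orange. The 4 KO livers left of the dotted line at 0 hold the 3 highest values of Fabp1, Fabp2 and Slc27a5, and the highest of Lpl is the library of lowest slope.

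In skeletal muscle, 6 of the 10 genes passed the filter and 0 were called between libraries labelled KO and WT. Only 1 of 13266 genes was called (0.00754%), and 8.64% had an unadjusted p under 0.05, against 0 of the 6. Fabp3, the muscle binding protein, stood at 104, 196 and 419 CPM in WT libraries and 149, 181 and 405 CPM in libraries labelled KO, all within the WT range (log2 fold change -0.15, 95% interval -0.55 to 0.24). Fabp4 stood at 167, 247 and 405 CPM in WT libraries and 204, 261 and 876 CPM in libraries labelled KO, with a log2 fold change of 0.37 (95% interval -0.18 to 0.92, adjusted p = 0.718, edgeR). Animals 561 and 611, at 850 and 876 CPM, were the only libraries above the WT range of Fabp4, and the same animals were the only ones above it for Lpl (934 and 1027 CPM against at most 774) and Cd36 (698 and 804 CPM against at most 597).

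Without these 2 libraries, which were left out by their adipocyte marker sums after the data had been seen, Fabp4 had a log2 fold change of -0.17, Lpl of -0.31 and Cd36 of -0.08, against 0.37, 0.10 and 0.18 with them. Slc27a1 had -0.10 with all libraries (95% interval -0.29 to 0.09) and -0.20 without the 2, and Slc27a4 -0.09 (95% interval -0.22 to 0.04) and -0.12. None was called in either case. Genotype effects were also compared between the tissues by the interaction of genotype and tissue, in which 1 of 14739 genes was called (0.00678%), Slc16a13, and 0 of the 10. The interaction was -0.55 for Cd36 on the log2 scale (95% interval -1.15 to 0.04, adjusted p = 0.334) and 0.32 for Slc27a1 (95% interval 0.002 to 0.63, adjusted p = 0.308), both by edgeR. Without the 4 KO livers of negative slope these values were -0.37 and 0.27, and 0 of the 10 were called. These fits did not pair the tissues of a mouse. With the animal as replicate block the interaction was -0.57 for Cd36 (standard error 0.20, against 0.30 without the block) and 0.315 for Slc27a1 (0.14 against 0.16). The unadjusted p was then 0.00987 and 0.0391, against 0.0687 and 0.0483 without the block, and the adjusted p was 0.321 for both, by edgeR.

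The genes that act beside these 10 were taken from 4 lists. Of all 13907 genes tested between WT tissues, 45.5% were called higher in liver and 45.5% higher in muscle. A call as such therefore does not set these lists apart. In the list of other family members and carriers, 7 of 10 genes were tested between WT tissues and all 7 were called, 3 higher in liver and 4 in muscle. They included the acyl-CoA binding protein gene Dbi, at a median of 859 RPKM in WT liver and 144 in WT muscle, and the caveolin genes Cav1 and Cav2, which were higher in muscle (log2 fold changes of liver minus muscle of -4.92 and -2.80). Fabp7, the brain binding protein, was low in liver at 5.64 RPKM and had 19 reads over all WT muscles. Of the acyl-CoA synthetases, which trap fatty acids in the cell, all 5 were called, 3 higher in liver and 2 in muscle: Acsl1 and Acsl5 were higher in liver (log2 fold changes 2.74 and 5.99), as was Acsl4 (0.37), while Acsl3 and Acsl6 were higher in muscle (-1.40 and -8.91).

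In the list of genes around lipoprotein lipase, 11 of 12 were called between WT tissues. Of these, 10 were higher in liver and 1, the receptor gene Vldlr, higher in muscle (-6.02). Of all genes tested, 45.5% were called on each side. Apoc3, the gene of an apolipoprotein that inhibits lipoprotein lipase, stood at a median of 3195 RPKM in WT liver and had 8 reads over all WT muscles. Hepatic lipase, Lipc, had 1 read in all WT muscles, and the maturation factor gene Lmf1 was higher in liver (2.22). The gene not called was Gpihbp1, which anchors lipoprotein lipase to capillary endothelium, at medians of 27.9 RPKM in WT liver and 27.4 in WT muscle (log2 fold change 0.13, standard error 0.06, adjusted p = 0.0569, edgeR), while Lpl itself was 22.01 times higher in muscle by pooled CPM. In the list of PPAR receptors and coactivators all 6 were called, with Ppara (5.70), Pparg (1.82) and Rxra (1.38) higher in liver and Ppard (-2.18), Ppargc1a (-1.13) and Ppargc1b (-0.63) higher in muscle. Gpihbp1, Vldlr, Acsl4, Pparg and Ppargc1b were named after their values were seen.

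Between genotypes, 0 of the 29 tested genes of these lists were called in liver and 0 of 22 in muscle. In liver 4 of the 12 genes around lipoprotein lipase had an unadjusted p under 0.05, as did 12.9% of all genes tested, Lmf1 (0.24), Angptl4 (0.38), Apoc3 (0.36) and Lipc (0.27), all with higher means in KO livers and adjusted p = 0.382, edgeR. Among the synthetases 1 of 4 did, Acsl4 (-0.33). Without the 4 KO livers of negative slope, 0 of the 12 had an unadjusted p under 0.05 (2.96% of all genes). With the trend on gene length removed 2 of the 12 did, as did 1213 of all 13005 genes tested.

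Within liver, 16 of the 36 pairs among the 9 tested genes varied together from mouse to mouse. These relations were chosen after the values had been seen and were computed on deviations from genotype means in the 18 livers without a negative slope, as 36 pairs of genes, with p adjusted over 51 pairs in both tissues. Cd36 rose with Lpl (Pearson's r = 0.84, permutation p = 9e-05, adjusted p = 0.00066; Spearman's rho = 0.83, adjusted p = 0.0011), and r was 0.81 without the 2 livers of most distant Cd36. Cd36 also rose with Fabp4 (r = 0.76, permutation p = 0.00055, adjusted p = 0.0025; rho = 0.72, adjusted p = 0.0057), with r = 0.77 without the most distant 2.

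Slc27a2 and Slc27a5 ran the other way. Slc27a1 also had negative values, but its pairs with Cd36 (r = -0.41, adjusted permutation p = 0.13) and Lpl (r = -0.43, adjusted permutation p = 0.12) did not pass. With Fabp4 it had r = -0.54, and rho did not pass (adjusted permutation p = 0.11). Its pair with Fabp2 met the criteria given below (r = -0.64, and -0.51 without the most distant 2). Slc27a4 rose with Fabp4 instead (r = 0.59, permutation p = 0.012, adjusted p = 0.025, and rho = 0.62, adjusted p = 0.021). That r was 0.69 without the 2 livers of most distant Fabp4. Slc27a5 was low where Fabp2 was high, with r = -0.93 (p = 1e-05 by permutation, which is the lowest value possible with 100000 resamples, adjusted p = 0.00025; rho = -0.88, adjusted p = 0.00051), and r was -0.88 without the 2 livers of most distant Fabp2. In WT livers alone r was -0.94 and in the 7 KO livers -0.92. Slc27a5 and Cd36 had r = -0.78 (permutation p = 0.00023, adjusted p = 0.0013; rho = -0.85, adjusted p = 0.00051; r = -0.76 without the most distant 2), and Slc27a2 and Cd36 had r = -0.74 (permutation p = 8e-04, adjusted p = 0.0031; rho = -0.79, adjusted p = 0.0019; r = -0.71 without the most distant 2). Of the 36 pairs, 8 positive and 8 negative ones passed an adjusted p of 0.05 by r and by rho and kept an unadjusted p under 0.05 without the 2 most distant livers. Fabp1 was in none of these 16. The share of all gene pairs that pass the same criteria is not given here, so the count is not set apart from that of other genes. With all 22 livers, r was 0.12 for Slc27a5 and Fabp2, 0.49 for Cd36 and Lpl and 0.46 for Cd36 and Fabp4. It was -0.52 for Slc27a2 and Cd36 and 0.44 for Slc27a4 and Fabp4, but -0.84 for Slc27a5 and Cd36. For Slc27a1 and Fabp2 r was -0.26. Of the pairs named that met the criteria, only Slc27a5 and Cd36 were thus not weaker over all 22 livers.

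In liver, Lpl also followed the sum of 7 macrophage markers over all 22 libraries (r = 0.77, permutation p = 9e-04, adjusted p = 0.0016 over 11 marker relations; rho = 0.62, adjusted p = 0.0073), with r = 0.50 without the 2 livers of most distant macrophage sum, animals 532 and 588. In WT livers alone r was 0.58 (adjusted permutation p = 0.12), and in the 18 livers without a negative slope it was 0.39 (permutation p = 0.12, adjusted p = 0.16). The relation was thus positive but weaker in these subsets, and it did not pass there. Fabp4 had r = 0.54 with the same markers (permutation p = 0.027, adjusted p = 0.035; rho = 0.36, adjusted p = 0.13) and r = -0.08 in the 18 livers. Cd36 did not follow it (r = -0.08, permutation p = 0.79, rho = 0.16). Fabp4 followed the adipocyte markers with r = 0.47 (permutation p = 0.029, adjusted p = 0.035; rho = 0.58, adjusted p = 0.0083) and r = 0.39 without the most distant 2 (permutation p = 0.058). In the 18 livers without a negative slope it was 0.75 (permutation p = 0.00055, adjusted p = 0.0012; rho = 0.72, adjusted p = 0.0036), with r = 0.64 without the most distant 2 (permutation p = 0.01), and in the 11 KO livers alone 0.32 (permutation p = 0.34). Over the 22 livers the adipocyte sum spanned 54.3 to 246 CPM, and the adipocyte marker Lep had no read. The markers were not tested one by one, so the sum does not show that adipocytes were present in liver.

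In muscle, Cd36 and Lpl were nearly parallel, with r = 0.98 over 22 libraries (permutation p = 1e-05, adjusted p = 0.00025; rho = 0.95, adjusted p = 0.00017) and r = 0.95 without animals 611 and 561. Fabp4 rose with both, with r = 0.90 for Cd36 and 0.91 for Lpl (permutation p = 2e-05 and adjusted p = 0.00025 for each; rho = 0.83 and 0.87), and with r = 0.73 and 0.78 without the most distant 2. Fabp3 was tied to Cd36 (r = 0.73, permutation p = 0.00025, adjusted p = 0.0013; rho = 0.68, adjusted p = 0.0033; r = 0.81 without the most distant 2). For Fabp3 and Fabp4 the values did not pass (r = 0.45, permutation p = 0.033, adjusted p = 0.052; rho = 0.41; r = 0.08 without the most distant 2). Fabp3 and Lpl had r = 0.73 (permutation p = 0.00018, adjusted p = 0.0011; rho = 0.74, adjusted p = 0.0014; r = 0.50 without the most distant 2). Of 15 pairs in muscle, 5 met the same criteria, all positive, and the share of all gene pairs is not given here either.

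**Figure D4:**
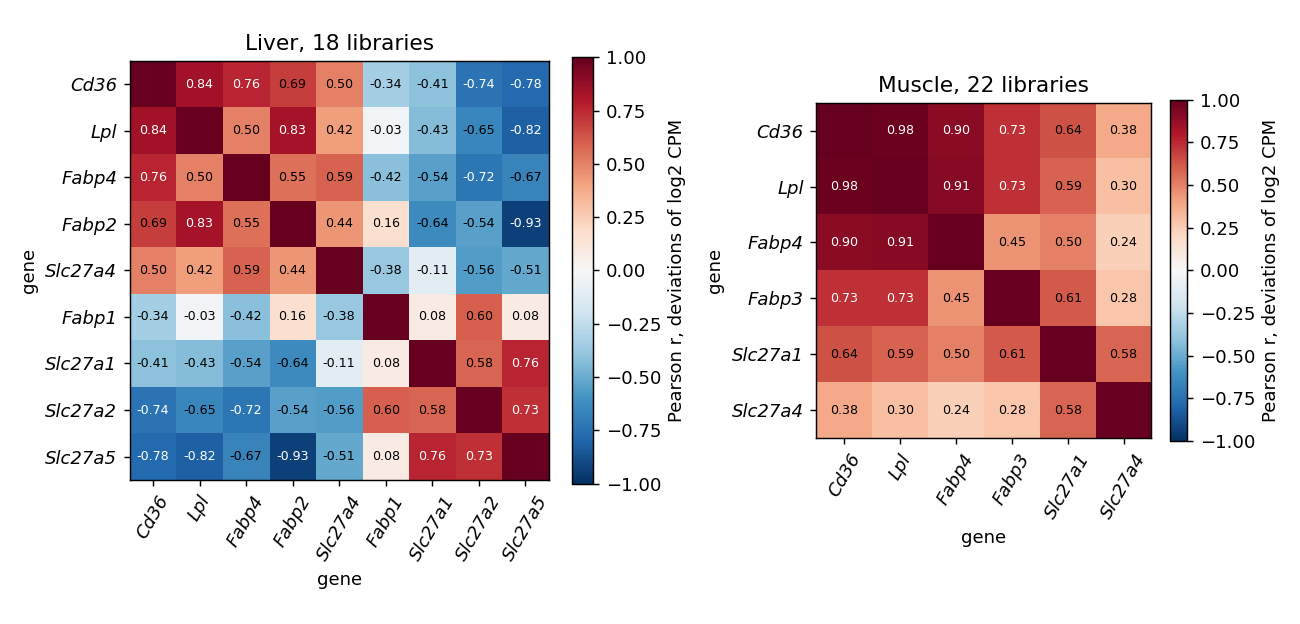
Pearson's r between the genes over 18 livers without a negative slope (left) and 22 muscle libraries (right), on deviations of log2 CPM from the means of each genotype label. In liver, Cd36, Lpl, Fabp4 and Fabp2 form a positive set that is negative against Slc27a1, Slc27a2 and Slc27a5. Slc27a4 is positive with each gene of that set. In muscle, Cd36, Lpl and Fabp4 reach r = 0.90 or more.

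Marker sums moved with these genes in muscle. The sum of 8 adipocyte markers spanned 701 to 1043 CPM in WT libraries and 693 to 1691 CPM in libraries labelled KO. Fabp4 followed it (r = 0.83, permutation p = 1e-05, adjusted p = 3.7e-05; rho = 0.75, adjusted p = 0.00027), with r = 0.65 without animals 561 and 611 and 0.82 in WT libraries alone. For Lpl r was 0.70 (permutation p = 0.00077, adjusted p = 0.0016, rho = 0.60) and for Cd36 0.69 (permutation p = 0.0011, adjusted p = 0.0017, rho = 0.58). Without the same 2 libraries they were 0.41 (permutation p = 0.054) and 0.37 (permutation p = 0.077). In WT libraries alone they were 0.55 (permutation p = 0.081) and 0.48 (permutation p = 0.14). These relations were thus weaker without the 2 libraries and did not pass. Fabp3 did not follow the adipocyte markers (r = 0.15, permutation p = 0.48, rho = 0.08).

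Against 6 endothelial markers, r was 0.86 for Lpl (permutation p = 2e-05, adjusted p = 5.5e-05; rho = 0.67, adjusted p = 0.0034) and 0.87 for Cd36 (permutation p = 1e-05, adjusted p = 3.7e-05; rho = 0.70, adjusted p = 0.0023), and without animals 611 and 561 they were 0.72 and 0.74. In the libraries labelled KO alone r was 0.86 for Lpl and 0.88 for Cd36, and without the same animals 0.24 (permutation p = 0.53) and 0.33 (permutation p = 0.39), so within that label the relations rest on them. In WT libraries alone r was 0.86 for each, and 0.67 and 0.66 without the most distant 2 (permutation p = 0.049 and 0.051). The few Fabp1 reads in muscle came with hepatocyte transcripts: the 2 muscle libraries with most Fabp1, animal 597 labelled KO with 19 reads and WT animal 616 with 11, had the highest hepatocyte marker sums of their groups, 12.2 and 7.26 CPM. Over 22 libraries r was 0.91 (permutation p = 1e-05, adjusted p = 3.7e-05; rho = 0.87, adjusted p = 0.00011), and 0.86 without animals 597 and 532. In WT libraries alone r was 0.93, and 0.48 without animals 616 and 612 (permutation p = 0.11), so within WT the relation was weaker without them and did not pass. In the libraries labelled KO alone r was 0.89, and 0.80 without animals 597 and 570 (permutation p = 0.0095). The part of these cell types in the levels was not tested.

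**Figure D5:**
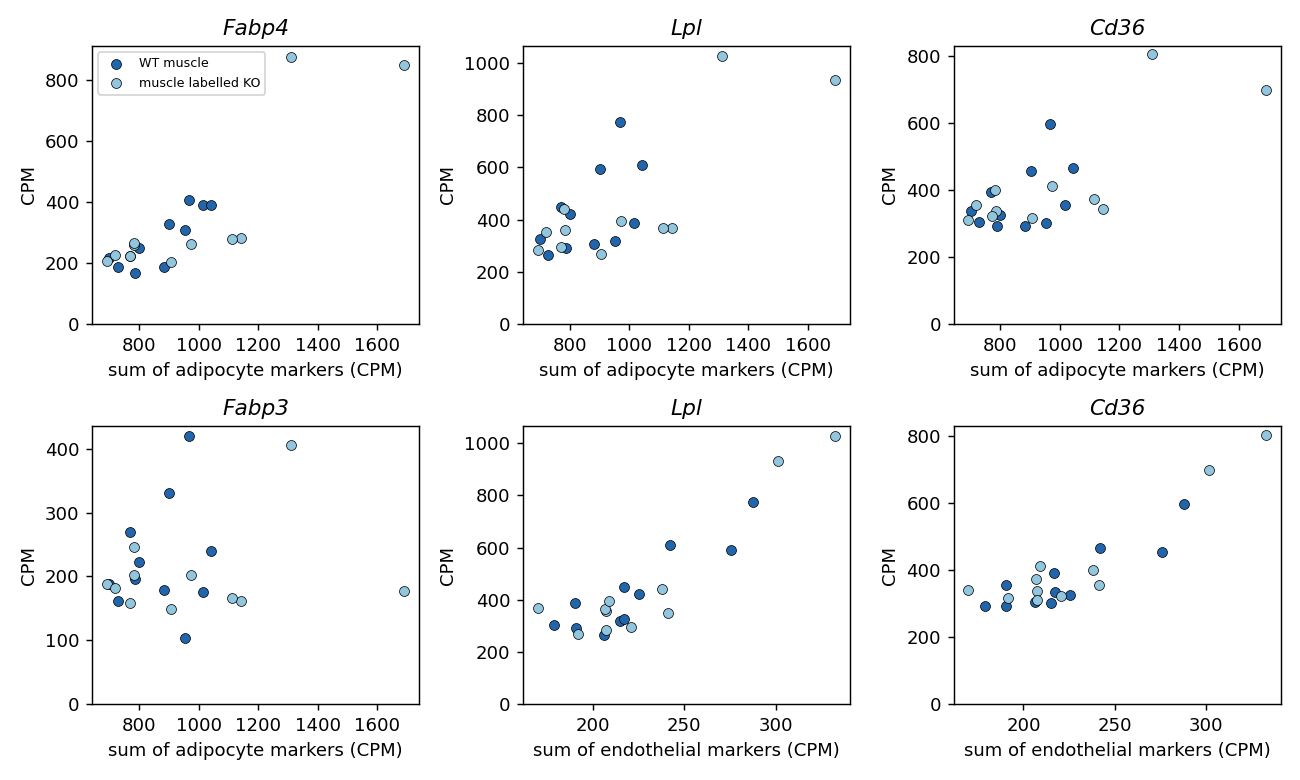
CPM of 4 genes in 22 muscle libraries against the summed CPM of 8 adipocyte markers (4 panels) and of 6 endothelial markers (2 panels), with WT in dark blue and labelled KO in light blue. Animals 561 and 611 are the points far to the right, at 1691 and 1310 CPM of adipocyte markers, and Fabp3 shows no relation to that sum (r = 0.15).

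The same mouse gave liver and muscle, so levels were also compared across tissues for the 5 genes tested in both, in a family of 5 relations chosen after the values had been seen. For Cd36, Spearman's rho was 0.70 over 22 mice (permutation p = 0.00069, adjusted p = 0.0034) but Pearson's r was 0.52 (permutation p = 0.018, adjusted p = 0.091), and r was 0.46 without the 2 most distant livers. In the 18 mice without a negative liver slope rho was 0.53 (permutation p = 0.03) and r 0.45 (permutation p = 0.074). By rho, Lpl (0.56, permutation p = 0.0096, adjusted p = 0.024) and Fabp4 (0.50, permutation p = 0.02, adjusted p = 0.034) also passed over 22 mice, with r of 0.33 and 0.35 (adjusted p = 0.28 for both) and, in the 18 mice, rho of 0.44 for each (permutation p = 0.077 and 0.076). Slc27a1 (rho = 0.19) and Slc27a4 (rho = -0.23) did not pass.

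The genes whose levels were most like those of each gene were named by Spearman's rho on deviations from the genotype means, as a description without a test, since all values come from the same libraries. In the 22 muscle libraries Fabp3 was most like Hadhb (rho = 0.96), Acadvl (0.95) and Ech1 (0.95), which encode enzymes of mitochondrial beta-oxidation. Fabp4 was most like Npr3 (0.98), Prkar2b (0.97) and the adipokine gene Adipoq (0.97), the latter one of the adipocyte markers used above. Lpl and Cd36 were most like each other (0.95), followed by the acyl-CoA binding protein gene Dbi and the triglyceride synthesis gene Dgat2 for Lpl (both 0.94) and by Cobll1 (0.94) and Sh3bgrl (0.93) for Cd36. Slc27a1 was most like Caskin2 (0.87) and Slc27a4 most like Lmf2 (0.79).

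In the 18 livers without a negative slope, Fabp1 was most like Eci1 (rho = 0.81) and Hadhb (0.78), which also encode enzymes of beta-oxidation, and Psma5 (0.79), a proteasome subunit. Slc27a5 was most like Cyp2c23 (0.94), Cyp4f15 (0.92) and Agxt (0.91), which encode hepatocyte enzymes. Lpl was most like Elf4 (0.92), Clec7a (0.91), the myeloid receptor dectin-1, and Slc35f2 (0.90). Cd36 was most like Wfdc2, Arpp19 and Morc4 (each 0.95), Slc27a2 most like Chrna2 (0.91), Slc27a4 most like the lipid droplet gene Bscl2 (0.93), Fabp2 most like Plscr1 (0.89), Fabp4 most like Tmem237 (0.92) and Slc27a1 most like Tmem94 (0.87). With all 22 livers some of these values held and others did not: rho was 0.93 for Cd36 and Morc4 but 0.25 for Cd36 and Arpp19, and 0.90 for Lpl and Clec7a but 0.44 for Fabp2 and Plscr1. For Fabp1 it was 0.93 with Eci1 and 0.91 with Psma5 but 0.32 with Hadhb.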

How the data were processed

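Poly(A) RNA of liver and skeletal muscle was sequenced in 44 libraries, and the labels gave each library's tissue, genotype and animal. The authors deposited raw read counts on 38202 genes and a table of RPKM values, which are reads scaled to gene length and library size. Aligner, counting program and genome build are not given in the sources used here, so gene coordinates are not reported, and the promoters carry those of the RefSeq table. A kit that keeps strand was used, but the counting by strand is not stated. Values in the deposited tables imply lengths that changed between libraries for Slc27a2, Slc27a4, Slc27a5 and Lpl, so the level between genes was read from RPKM and comparisons from counts. Gene length was taken as the median that both tables imply.

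Counts were filtered with filterByExpr, scaled by TMM and compared by the quasi-likelihood F-test of edgeR 4.0.16 under R 4.3.3, with p-values adjusted by Benjamini and Hochberg's method and called under 0.05, within tissue on 22 libraries, between tissues within a genotype label, and for the interaction on all 44. CPM values are TMM-scaled within tissue, log2 values use a prior count of 2, and 95% intervals come from the fit. Levels were ordered on log2(RPKM + 0.01). Permutation tests in Python 3.11.15 with scipy 1.17.1 were two-sided, with 100000 resamples within the genotype label or all 2048 sign flips. Alternatives were DESeq2 1.42.0, limma 3.58.1 (voom), library size scaling, no filter, gene length removed (loess, span 0.3), each library left out, leaving out the 4 KO livers of negative slope (for the KO tissue contrast and the marker relations chosen after seeing the data), other pseudocounts, and the animal as replicate block. Between tissues the samples are paired by animal, from the labels: liver and muscle of a mouse deviated together, with a mean correlation over genes of 0.10 where different mice had -0.01. Scripts were tested on simulated data.

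Members, lists and tests were chosen with earlier results of these data known. Genes named beside the 10 are up to 4 per list with the smallest adjusted p, and the 3 most like each gene by Spearman's rho among genes with a mean of at least 1 CPM. A gene that this rule names is not reported here. Other genes named are said to be chosen after their values were seen.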

Additional observations from a re-analysis of the deposited data

Results flagged for a closer look

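The effect of the genotype label on Slc16a13 differed between the tissues, by the test of the interaction itself: it was -6.08 on the log2 scale (adjusted p = 5.92e-16, edgeR). Its reads were 1828 in WT and 39 in KO livers, but 136 in WT muscles and 218 in muscles labelled KO, so every direction given for muscle is that of the label. The test for a single distant library was not run, since it covers groups of 4 to 10 samples and each group here held 11.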

How the results depend on the processing

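No alternative called any of the 10 genes between genotypes, and all 10 were called between tissues under each alternative run, including the paired fit with animal as replicate block (12674 genes called between WT tissues, 12107 between the libraries labelled KO, and 1 for the interaction), which changed no call. Counts of genes called moved with the tool: DESeq2 called 6 genes in liver and 43 for the interaction, limma-voom, no filter and leaving out the 2 adipocyte-rich muscles each called 0 in muscle, and the interaction had 3 with library size scaling and 2 without the KO livers of negative slope. The cause was not tested.

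Log2 fold changes whose sign turned in liver were, without the KO livers of negative slope, -0.047 for Fabp1, -0.043 for Fabp2, -0.077 for Fabp4, -0.003 for Slc27a4 and -0.09 for Lpl, and -0.02 for Fabp4 with gene length removed. Leaving out each library in turn gave Lpl -0.036 to 0.305 in liver and -0.085 to 0.223 in muscle. Without the 2 adipocyte-rich muscles they were -0.084 for Cd36, -0.169 for Fabp4 and -0.306 for Lpl. The interaction turned to 0.025 for Fabp2 with limma-voom and to -0.191 for Lpl without the KO livers of negative slope. The order of Slc27a2 and Fabp1 in muscle turned with pseudocounts of 0.1 (-0.133) and 1 (-0.058). The relation of liver Cd36 to macrophage markers turned to 0.48 in WT livers, 0.05 with gene length removed and 0.06 without the KO livers of negative slope, where that of Fabp4 turned to -0.08. The relation to the slope over 22 livers turned, without the 2 most distant libraries, to -0.05 for Fabp3, -0.23 for Slc27a2 and 0.03 for Lpl.

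Depth limits Fabp1, Fabp2, Slc27a2 and Slc27a5 in muscle and Fabp3 in liver, where a difference between genotypes was not detectable.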
